A study of Mus musculus with 54 samples.

Results

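The putative ruptured and putative unruptured sides of mouse ovarian follicles kept without human chorionic gonadotropin (hCG) were compared by RNA-seq of single follicle sides. Members were taken by sample label, which gave 14 putative ruptured and 15 putative unruptured libraries, 29 of the 54 in the series, and every gene of the coding count table entered. Follicles at the secondary stage came from CD-1 females, an outbred stock with no genetic change named, aged 14 to 16 days. They grew for 8 days enclosed in alginate gel, which holds them in 3 dimensions, and both groups then spent 12 h in maturation medium with serum, epidermal growth factor and recombinant FSH but no hCG, the analog of luteinizing hormone that induces ovulation. The sides are therefore called putative, since no follicle had ruptured and the wall was divided by its shape, at the expanded antral region against the rest. Isolation with enzymes removes much of the theca, which grows back in culture, and the isolated follicles have neither a blood supply nor the covering of the ovary. By its label the tissue is cumulus-oocyte complex, but the methods of the study have these complexes removed before sequencing. The labels do not say which sides share a follicle, an animal or a culture, so p-values measure only the spread between these libraries.

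The follicle wall holds granulosa cells on the inside and theca cells on the outside of a basement membrane. Theca cells make androgens from cholesterol, and granulosa cells, under follicle-stimulating hormone (FSH), turn them into estrogens with aromatase. FSH acts through cyclic AMP and is known to raise aromatase, inhibin subunits and, late in antral growth, the receptor for luteinizing hormone. Granulosa cells near the wall divide until the gonadotropin surge, and the theca and stroma supply collagens and contractile proteins.

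Genes were divided almost evenly between the sides. Of 9063 genes tested, 801 (8.84%) were higher on the putative ruptured side and 812 (8.96%) on the putative unruptured side at a false discovery rate (FDR) of 0.05, 1613 (17.8%) in all. Counts of called genes in the lists below are to be read against these shares of 8.84% and 8.96%. Among them 215 and 205 genes differed at least 2-fold in the respective directions. Each gene was tested by quasi-likelihood in edgeR, with FDRs after Benjamini and Hochberg. A positive log2 fold change (log2FC) means a higher level in putative ruptured libraries, and over all genes tested its median was −0.01. The SE follows the sign ± where it is not named. Levels are in TPM, which is scaled by transcript length, and are given as the lowest, median and highest library of a side. Unless stated, the ranges of the sides overlapped. Putative ruptured libraries were shallower, with 1497071 to 2028982 counts against 1506980 to 2657045, and after thinning to 1497071 counts 678 and 706 genes passed. When scaled by library totals and not by TMM factors the split was 585 and 905, so that 39.3% of calls and not 49.7% were higher on the putative ruptured side. Without putative unruptured replicates 1 and 7, left out together because earlier results of these data had set them apart, the numbers were 737 (8.28%) and 690 (7.76%).

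Each sample description carries a code that begins with F, G or H, whose meaning the labels do not give, and the letter followed the side in part. All 10 libraries with F were putative unruptured, all 9 with H were putative ruptured, and G covered 5 of each side. Within G, 3 of 9068 genes (0.0331%) passed higher on the putative ruptured side and 0 (0%) on the other with edgeR, while 514 and 352 had an unadjusted p under 0.05 and DESeq2 called 49 and 24. The 3 genes were *Itga2*, *Epha4* and, named after its value was seen, *Osgin2*. Of the genes called with all libraries and tested within G, 752 of 782 and 734 of 787 had the same sign there, with a median log2FC of 0.44 against 0.64 and −0.39 against −0.64, although those libraries were also part of the full comparison. Within the putative unruptured side, G against F gave 0 calls (0%) of 9926 genes with edgeR and 444 at an unadjusted p under 0.05. Within the putative ruptured side G against H gave 57 calls (0.636%) of 8962 genes and 1130 at an unadjusted p under 0.05. Outside G the letter and the side cannot be told apart. Values within G are given below for log2FCs of called genes and for list medians. They are printed where they differed by over 1.5 times from those with all libraries, and for some others. *Fshr*, *Inhbb*, *Nppc*, *Sbsn*, *Wnt6* and *Insl3* failed the edgeR expression filter within G and have no edgeR value there.

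**Figure D1:**
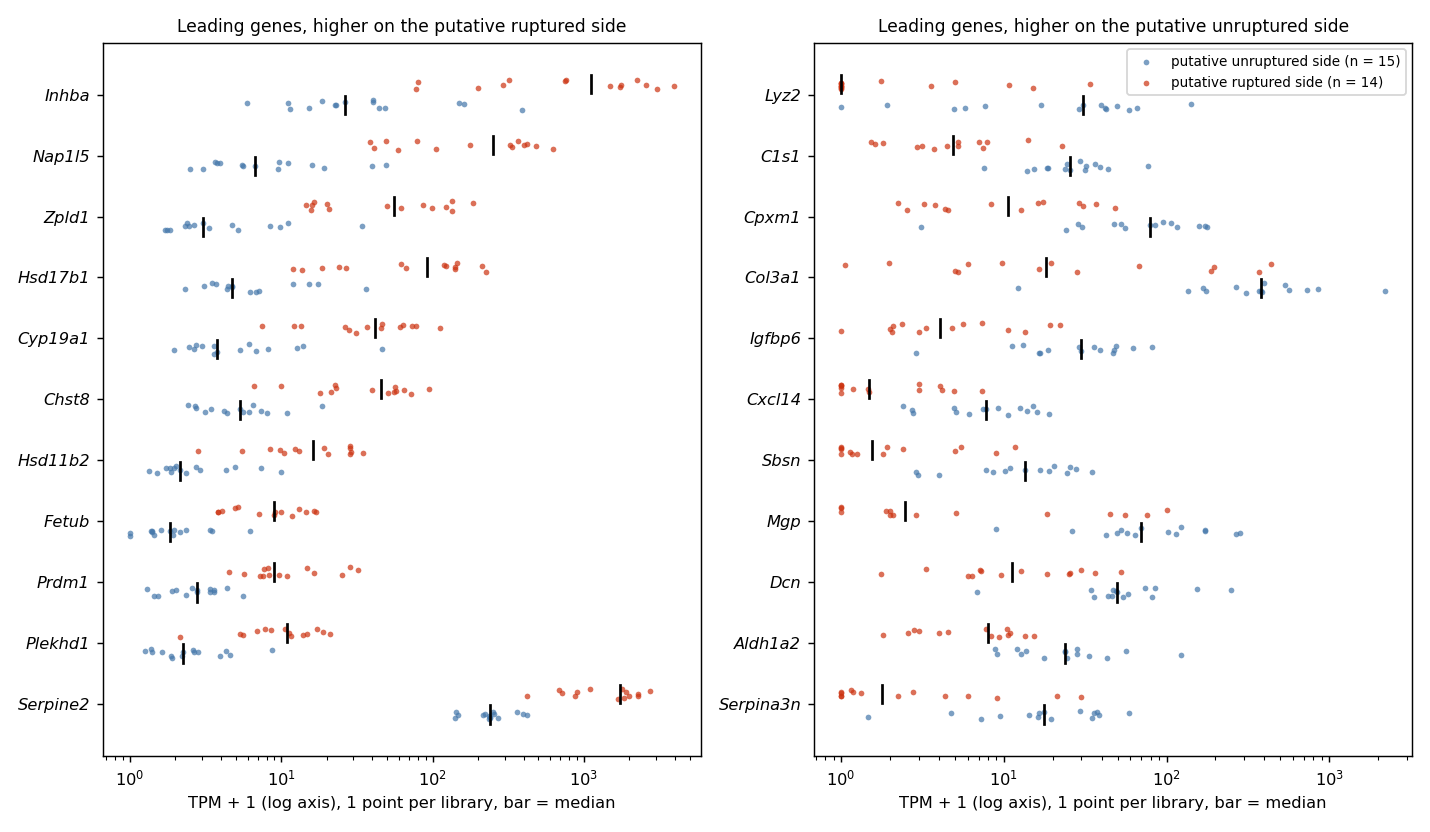
Levels of 22 of the 24 leading genes, with 1 point per library on a log axis of TPM + 1 and a bar at the median of each side. *Inhba* reached a median of 1119 TPM on the putative ruptured side against 25.4 TPM, and *Serpine2*, at the foot of the left panel, is the one among them whose sides do not overlap.

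Most FSH target genes of granulosa cells were higher on the putative ruptured side. Of 10 listed and tested, 7 rose and 0 fell, with a median log2FC of 1.47, and 0.59 within code letter G. *Cyp19a1* (GRCm38 chromosome 9, 54165937 to 54268110), aromatase, ranged from 0.96 to 45.3 TPM (median 2.75) in putative unruptured and 6.42 to 111 TPM (median 40.5) in putative ruptured libraries. The ranges overlapped, as 1 putative unruptured library lay above the putative ruptured median, and the difference passed (log2FC 3.22, SE 0.38, FDR = 1.05e-06). *Hsd17b1* (chromosome 11, 101078411 to 101080527), which reduces estrone to estradiol, ranged from 1.33 to 35.6 TPM (median 3.72) in putative unruptured and 11 to 226 TPM (median 91.5) in putative ruptured libraries (log2FC 3.70, SE 0.49, FDR = 3.03e-06), and 9 of 14 putative ruptured libraries exceeded the whole putative unruptured range. *Sgk1*, a kinase induced by FSH, rose from a median of 16.7 to 39.1 TPM (log2FC 1.72, SE 0.26, FDR = 2.33e-05), *Nr5a2*, the nuclear receptor LRH-1, from 11.4 to 23.2 TPM (log2FC 1.10 ± 0.17), and *Prkar2b*, a regulatory subunit of protein kinase A, from 17.0 to 43.1 TPM (log2FC 1.24 ± 0.28). *Lhcgr*, the receptor for luteinizing hormone and hCG, did not pass (log2FC 0.99, FDR = 0.263), but did without putative unruptured replicate 2 (log2FC 2.01, FDR = 0.00398). *Ccnd2*, cyclin D2, was also not past the threshold (log2FC −0.31). For *Cyp19a1*, *Hsd17b1*, *Nr5a2*, *Prkar2b* and *Lhcgr* the log2FC within letter G was 2.06, 1.78, 0.37, 0.64 and −0.31, in that order.

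Most called genes of inhibin and activin, dimers of shared subunits that lower and raise FSH secretion, belonged to the same side. *Inhba* (chromosome 13, 16011851 to 16031621) encodes the beta A subunit and ranged from 4.94 to 388 TPM (median 25.4) in putative unruptured and 76.8 to 3940.1 TPM (median 1119) in putative ruptured libraries. All putative ruptured libraries exceeded the median of the other side and 9 of 14 exceeded its whole range (log2FC 4.46, SE 0.64, FDR = 9.28e-06), yet levels within each side spread over more than 10-fold. *Inha*, the alpha subunit of inhibin, was among the most abundant messages on either side and ranged from 780.0 to 5382 TPM (median 2594) in putative unruptured and 3151 to 13424 TPM (median 9027) in putative ruptured libraries (log2FC 1.71, SE 0.28, FDR = 6.04e-05). *Inhbb*, the beta B subunit, stayed low but rose from a median of 0.5 to 3.62 TPM (log2FC 2.36, SE 0.42, FDR = 0.00016), and *Fst*, follistatin, which binds activin, from 29.9 to 88.1 TPM (log2FC 1.46, SE 0.33, FDR = 0.00175). *Fstl1*, a follistatin-like glycoprotein of mesenchymal cells, fell from 52.6 to 17.6 TPM (log2FC −1.53, SE 0.31, FDR = 0.000585). Of 9 genes tested of 13 listed, 4 were thus higher and 1 lower, and the activin receptor and SMAD genes tested were among those not past the threshold. Within letter G, *Inhba* had a log2FC of 2.24 (SE 0.94). For *Inha*, *Fst* and *Fstl1* the log2FC within letter G was 0.53, 0.78 and −0.81, in that order.

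Receptors and identity genes of granulosa cells moved less evenly. *Fshr*, the FSH receptor, ranged from 0 to 2.39 TPM (median 0.7) in putative unruptured and 0.88 to 8.36 TPM (median 3.21) in putative ruptured libraries (log2FC 2.12, SE 0.36, FDR = 8.06e-05). *Fshr* had only 91 counts over the former and 278 over the latter, and failed the expression filter within letter G. Of 7 gonadotropin and steroid receptors tested 2 were higher on the putative ruptured side and 1 lower. These numbers ran from 1 to 3 and from 0 to 1 when single libraries were left out. *Esr2*, the estrogen receptor of granulosa cells, rose from a median of 12.4 to 28.7 TPM (log2FC 1.52, SE 0.35, FDR = 0.00214). *Foxl2*, the transcription factor that marks granulosa cells, had a count in every library of both sides and nearly equal medians of 1.66 and 1.62 TPM (log2FC 0.35, FDR = 0.387). The granulosa identity list of 10 genes had 8 tested, 2 higher and 1 lower on the putative ruptured side, and the latter lost its call without any 1 of 8 libraries. In tissue pieces such as these, fewer cells of a type and less RNA per cell cannot be told apart. For *Esr2* the log2FC within letter G was 0.36.

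Progesterone synthesis was split between the sides. *Star*, which brings cholesterol into mitochondria, ranged from 3.77 to 143 TPM (median 43.1) in putative unruptured and 0.76 to 33.6 TPM (median 3.48) in putative ruptured libraries (log2FC −2.06, SE 0.47, FDR = 0.002). *Cyp11a1*, the side-chain cleavage enzyme that makes pregnenolone, ranged from 33.7 to 1306 TPM (median 197) and 15.1 to 389.5 TPM (median 66.0) in that order (log2FC −1.70, SE 0.48, FDR = 0.0122). The first steps were thus higher on the putative unruptured side, whereas *Hsd3b1*, which makes progesterone from pregnenolone, went the other way, ranging from 493 to 3528 TPM (median 1235) in putative unruptured and 1162 to 6372 TPM (median 3320.1) in putative ruptured libraries (log2FC 1.44, SE 0.27, FDR = 0.000295). *Akr1c18*, which breaks progesterone down, also rose, from a median of 5.61 to 20.8 TPM (log2FC 1.40 ± 0.32). Of 9 listed genes, all tested, 3 were higher and 3 lower, and the median log2FC was 0.14, and 0.28 within letter G. Within letter G, *Cyp11a1* had a log2FC of −2.23 (SE 0.73) and *Hsd3b1* of 0.45 (SE 0.39). For *Akr1c18* the log2FC within letter G was 0.57.

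Of 31 genes of cholesterol synthesis and uptake tested, 18 were higher on the putative ruptured side (58.1%, against 8.84% of all genes) and 0 lower, with a median log2FC of 0.59, and 0.43 within letter G. *Msmo1*, a sterol demethylase, ranged from 41.7 to 143 TPM (median 99.6) in putative unruptured and 73.2 to 442 TPM (median 169) in putative ruptured libraries (log2FC 1.15, SE 0.23, FDR = 0.000496), and 12 of 14 putative ruptured libraries exceeded the median of the other side. *Dhcr7*, which makes cholesterol in the last step, ranged from 5.33 to 43.5 TPM (median 14.5) in putative unruptured and 10.8 to 54.4 TPM (median 24.5) in putative ruptured libraries (log2FC 0.98, SE 0.20, FDR = 0.000793). *Mvd*, which makes the isoprenoid unit of sterols, rose from a median of 5.56 to 8.88 TPM (log2FC 1.04 ± 0.23), and *Tm7sf2*, a sterol reductase, from 18.4 to 27.2 TPM (log2FC 0.64 ± 0.14). *Hmgcs1*, an early enzyme of the pathway, did not pass (log2FC 0.30, FDR = 0.378). Summed over the list, levels ran from 756 to 2723 TPM in putative unruptured libraries and 1074 to 3593 TPM in putative ruptured ones, so the sides overlapped widely. Within letter G the medians of these sums were 1532 and 1474 TPM in the same order. For *Msmo1*, *Dhcr7* and *Mvd* the log2FC within letter G was 0.61, 0.43 and 0.57, in that order.

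The other leading genes of the putative ruptured side had varied roles. *Nap1l5* (chromosome 6, 58905233 to 58907076), an imprinted gene of the nucleosome assembly family, ranged from 1.48 to 48.4 TPM (median 5.69) in putative unruptured and 37.9 to 629 TPM (median 249.7) in putative ruptured libraries, with 11 of 14 putative ruptured libraries above every library of the other side (log2FC 4.42, SE 0.51, FDR = 9.85e-07). *Serpine2* (chromosome 1, 79794197 to 79861180), an inhibitor of thrombin and plasminogen activators, ranged from 141 to 418 TPM (median 238) in putative unruptured and 422 to 2736 TPM (median 1731) in putative ruptured libraries and did not overlap (log2FC 2.52, SE 0.25, FDR = 1.43e-07). Within letter G its log2FC was 1.66 (SE 0.35). *Chst8*, a sulfotransferase that modifies the sugars of glycoprotein hormones, rose from a median of 4.32 to 44.4 TPM (log2FC 3.06, SE 0.39, FDR = 1.8e-06), and *Hsd11b2*, which inactivates corticosterone, from 1.16 to 15.2 TPM (log2FC 2.99, SE 0.40, FDR = 3.03e-06). *Fetub*, the fetuin that keeps the zona pellucida soft when secreted by the liver, rose from 0.85 to 8.02 TPM (log2FC 2.88 ± 0.39) and *Prdm1*, the transcriptional repressor Blimp-1, from 1.77 to 7.98 TPM (log2FC 2.81 ± 0.34). *Zpld1*, a protein with a zona pellucida domain, and *Plekhd1* had medians of 54.9 and 9.90 TPM against 2.06 and 1.25 TPM. For *Nap1l5*, *Chst8*, *Hsd11b2*, *Fetub*, *Zpld1* and *Plekhd1* the log2FC within letter G was 2.67, 1.57, 1.68, 1.85, 1.78 and 1.38, in that order.

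Only 5 of 9063 genes (0.0552%) had every library of one side above every library of the other in TMM-scaled CPM, each higher on the putative ruptured side. Besides *Serpine2* they were *Tlcd1* (log2FC 1.16), *Zcchc11* (log2FC 1.05), a terminal uridylyltransferase, *Ammecr1* (log2FC 1.41) and *mt-Atp8* (log2FC 1.05), a mitochondrially encoded subunit of ATP synthase. These 4 were named after their values were seen. In TPM 3 genes tested did not overlap, *Serpine2*, *Tlcd1* and *Slc6a6*. *Ammecr1* ranged from 0.31 to 1.31 TPM (median 0.67) in putative unruptured and 1.29 to 2.83 TPM (median 2.0) in putative ruptured libraries.

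Mitotic genes were higher on the putative ruptured side, whereas genes of DNA replication were not as a group. Of 16 mitotic genes tested of 26 listed, 13 rose and 0 fell, with a median log2FC of 1.12, and 1.33 within letter G. *Ccnb1*, cyclin B1, ranged from 0.35 to 7.16 TPM (median 2.02) in putative unruptured and 2.84 to 20.9 TPM (median 7.63) in putative ruptured libraries (log2FC 1.54, SE 0.31, FDR = 0.000632). *Ube2c*, which marks mitotic cyclins for degradation, ranged from 0.41 to 18.2 TPM (median 5.96) in putative unruptured and 6.52 to 64.0 TPM (median 20.8) in putative ruptured libraries (log2FC 1.78, SE 0.37, FDR = 0.000886). Both ranges overlapped between the sides. *Prc1*, which bundles microtubules at the cleavage plane, rose from a median of 4.36 to 8.28 TPM (log2FC 1.20 ± 0.29), and *Cenpe*, a kinetochore motor, from 0.23 to 0.67 TPM (log2FC 1.46 ± 0.34). Of 15 replication genes tested, 1 passed, the ribonucleotide reductase subunit *Rrm2* (log2FC 0.88, SE 0.31, FDR = 0.0453), which lost its call without any 1 of 19 libraries. In this list 1 gene fell without putative ruptured replicate 5 or putative unruptured replicate 14. The list median was 0.04, 0.19 within letter G and −0.02 with library totals, and *Mcm2*, a subunit of the replicative helicase, had a log2FC of −0.11. On log2(TPM + 1) with limma 6 of the mitotic genes passed.

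Promoters of most mitotic genes tested share sequence features that the list was not chosen on. The windows run from 250 bases before to 50 bases after a start site in RefSeq on GRCm38.p6, and 12 of the 16 mitotic genes tested matched by symbol. TTTGAA, the letters of the cell cycle homology region, was searched with CCAAT on both strands, and the motifs overlapped in 0 of these genes. Both occurred in 10 of 12 genes (83.3%), against 367 of 6836 tested genes with a window (5.37%) and 6.95% of all 32851 windows. Of the listed mitotic genes under the expression filter that had a window, *Aurka*, *Bub1b* and *Kif11* held both motifs. *Bub1*, *Kif2c*, *Ndc80*, *Birc5* and *Nusap1* did not. TTTGAA was found in 17.9% and CCAAT in 37.4% of all windows. The windows of *Ube2c* and *Prc1* are shown as named genes with both motifs, and those of *Ccnb2* and *Cdk1*, encoding cyclin B2 and its kinase, were added after their values were seen (log2FC 1.6 and 1.01). Capitals mark the matches, which read TTCAAA or ATTGG where they lie on the opposite strand, and a match is a description of the letters and not a site of binding.
Ube2c at chr2:164769679-164769978, plus strand: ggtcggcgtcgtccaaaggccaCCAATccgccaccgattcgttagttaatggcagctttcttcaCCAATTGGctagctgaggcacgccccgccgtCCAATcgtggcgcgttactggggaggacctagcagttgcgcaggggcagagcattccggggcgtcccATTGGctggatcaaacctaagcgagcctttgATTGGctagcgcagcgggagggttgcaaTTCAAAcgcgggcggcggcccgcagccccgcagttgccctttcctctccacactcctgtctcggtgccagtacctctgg
Prc1 at chr7:80294201-80294500, plus strand: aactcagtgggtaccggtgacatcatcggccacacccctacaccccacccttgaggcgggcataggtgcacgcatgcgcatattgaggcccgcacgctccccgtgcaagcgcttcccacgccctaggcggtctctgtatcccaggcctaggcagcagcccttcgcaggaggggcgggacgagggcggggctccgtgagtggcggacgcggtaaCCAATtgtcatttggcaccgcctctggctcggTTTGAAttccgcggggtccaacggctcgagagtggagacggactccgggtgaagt
Ccnb2 at chr9:70421505-70421804, minus strand: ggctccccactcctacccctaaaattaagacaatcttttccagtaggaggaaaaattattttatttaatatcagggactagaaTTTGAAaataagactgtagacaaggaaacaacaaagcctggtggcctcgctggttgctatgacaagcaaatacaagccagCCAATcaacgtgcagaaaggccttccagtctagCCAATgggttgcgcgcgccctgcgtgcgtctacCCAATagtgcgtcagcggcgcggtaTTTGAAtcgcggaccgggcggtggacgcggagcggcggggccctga
Cdk1 at chr10:69352863-69353162, minus strand: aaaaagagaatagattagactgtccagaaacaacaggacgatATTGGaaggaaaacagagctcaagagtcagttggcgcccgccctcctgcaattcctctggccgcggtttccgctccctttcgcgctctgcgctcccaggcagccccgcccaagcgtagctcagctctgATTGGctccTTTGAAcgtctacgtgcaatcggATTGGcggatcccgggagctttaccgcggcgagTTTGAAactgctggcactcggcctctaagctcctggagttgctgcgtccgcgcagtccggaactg

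**Figure D2:**
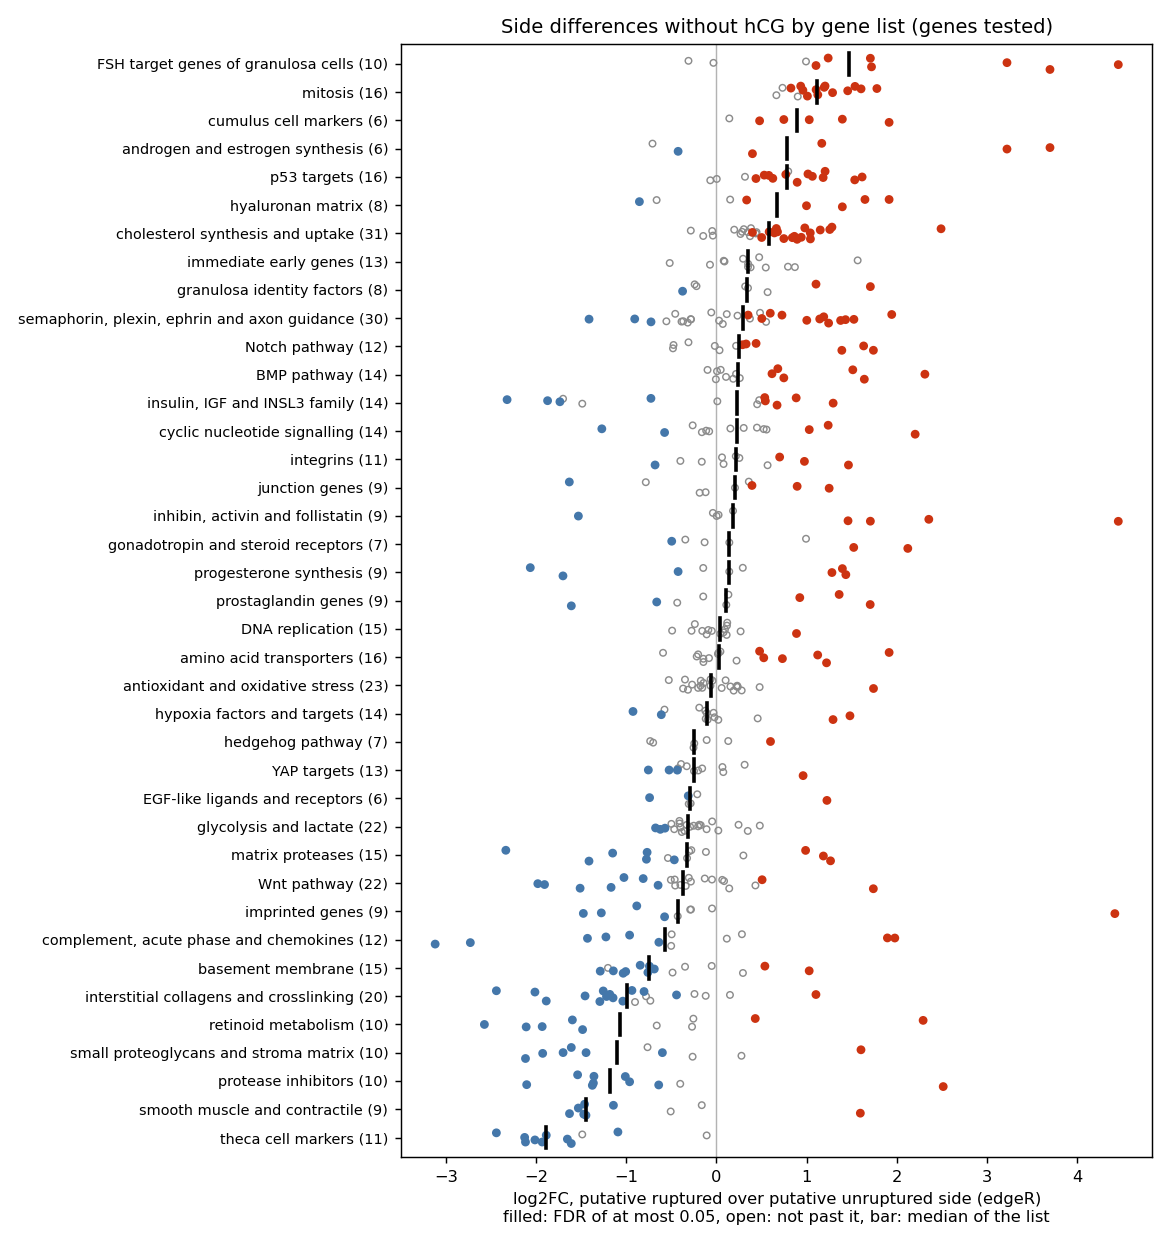
Log2FC of every tested gene of the gene lists with at least 5 genes tested (number in parentheses), ordered by the list median (bar). Filled points passed an FDR of 0.05. FSH targets (1.47) and mitosis (1.12) stand at the top, theca cell markers (−1.89) at the foot.

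Targets of p53, which arrest the cell cycle or promote cell death, were higher on the same side. Of 16 tested of 21, 12 rose and 0 fell, with a median log2FC of 0.78, and 0.66 within letter G. *Cdkn1a*, the cell cycle inhibitor p21, ranged from 28.4 to 114 TPM (median 60.3) in putative unruptured and 40.6 to 334 TPM (median 182) in putative ruptured libraries (log2FC 1.62, SE 0.20, FDR = 1.8e-06). *Ccng1*, cyclin G1, ranged from 5.57 to 18.3 TPM (median 11.4) in putative unruptured and 10.2 to 41.9 TPM (median 26.2) in putative ruptured libraries (log2FC 1.18, SE 0.18, FDR = 1.6e-05). For *Cdkn1a* 13 and for *Ccng1* 10 of 14 putative ruptured libraries exceeded the whole putative unruptured range. *Tnfrsf10b*, a death receptor, rose from a median of 2.21 to 3.85 TPM (log2FC 1.06 ± 0.16), *Eda2r*, the ectodysplasin A2 receptor, from 1.00 to 2.64 TPM (log2FC 1.53 ± 0.24), and *Mdm2*, the ligase that degrades p53, from 14.3 to 20.3 TPM (log2FC 0.44 ± 0.10). For *Ccng1*, *Tnfrsf10b* and *Eda2r* the log2FC within letter G was 0.69, 0.70 and 0.97, in that order.

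Several signalling pathways had members that rose on the putative ruptured side. In the Notch pathway 6 of 12 genes tested rose and 0 fell, including the ligand *Jag1* (log2FC 1.39 ± 0.25), the receptor *Notch2* (log2FC 0.44 ± 0.11), and the target repressors *Hey2* (median 3.25 to 9.51 TPM, log2FC 1.63 ± 0.20) and *Heyl* (log2FC 1.74 ± 0.29). In the BMP pathway 6 of 14 rose and 0 fell. They included the secreted antagonist *Grem1* (median 0.96 to 4.76 TPM, log2FC 2.31 ± 0.28), the ligand *Bmp3* (median 11.1 to 43.9 TPM, log2FC 1.64 ± 0.25) and the receptor *Bmpr2* (log2FC 0.68 ± 0.16). The shares of Notch and BMP genes that rose were 50% and 42.9%, against 8.84% of all genes. List medians were 0.25 and 0.24, and 0.33 and 0.29 within letter G. With limma, 3 of the Notch genes passed. For *Heyl*, *Bmp3* and *Bmpr2* the log2FC within letter G was 1.14, 1.08 and 0.29, in that order.

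Genes around insulin-like growth factors moved in both directions. The ligand *Igf1*, made by granulosa cells, rose from a median of 35.1 to 81.8 TPM (log2FC 1.29, SE 0.24, FDR = 0.000302), as did its receptor *Igf1r* (log2FC 0.54 ± 0.10) and the clearance receptor *Igf2r* (log2FC 0.67 ± 0.11). Of the binding proteins, 4 passed and all 4 fell, with *Igfbp6* ranging from 1.87 to 81.0 TPM (median 28.6) in putative unruptured and 0 to 21.0 TPM (median 3.08) in putative ruptured libraries (log2FC −2.32, SE 0.45, FDR = 0.000404), and with *Igfbp4* (log2FC −1.87 ± 0.41), *Igfbp7* (log2FC −1.73 ± 0.40) and *Igfbp2* (log2FC −0.73 ± 0.18). Of 14 genes tested in this family 5 rose and 4 fell, and the median log2FC of 0.23 was −0.28 within letter G. On log2(TPM + 1) with limma 1 was higher and 6 were lower, and neither receptor passed. For *Igf1*, *Igfbp4* and *Igfbp7* the log2FC within letter G was 0.73, −0.61 and −0.58, in that order.

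The peptide that holds the oocyte in meiotic arrest also followed the putative ruptured side. *Nppc*, its precursor, ranged from 0 to 7.83 TPM (median 2.08) in putative unruptured and 1.69 to 26.9 TPM (median 10.5) in putative ruptured libraries (log2FC 2.20, SE 0.38, FDR = 0.000114), and *Npr2*, its receptor, from 1.95 to 7.55 TPM (median 3.46) in putative unruptured and 4.07 to 16.2 TPM (median 10.9) in putative ruptured libraries (log2FC 1.03, SE 0.23, FDR = 0.00184). *Npr3*, the clearance receptor, fell (log2FC −1.27 ± 0.35). *Gja1*, connexin 43, which couples granulosa cells, rose from a median of 1429 to 3603 TPM (log2FC 1.25, SE 0.22, FDR = 0.000134). Among guidance genes 12 of 30 tested rose and 3 fell. *Sema3c*, a secreted semaphorin, rose from 13.5 to 49.2 TPM (log2FC 1.52 ± 0.20), *Robo1*, a receptor for Slit proteins, from 3.71 to 8.73 TPM (log2FC 1.24 ± 0.17), and *Epha4*, an ephrin receptor, from 0.86 to 3.37 TPM (log2FC 1.94 ± 0.28), while *Nrp1*, a co-receptor for semaphorins, fell from 16.5 to 5.31 TPM (log2FC −1.41 ± 0.26). *Sema7a*, a membrane-anchored semaphorin, passed (log2FC 1.38, SE 0.23, FDR = 7.03e-05) and had a log2FC of 0.39 (SE 0.36) within letter G. *Itga2*, an integrin subunit that binds collagen, rose from 3.39 to 9.27 TPM (log2FC 1.46, SE 0.18, FDR = 1.12e-06), and within letter G its log2FC was 1.54 (SE 0.21, FDR = 0.0435). For *Npr2*, *Npr3*, *Gja1* and *Nrp1* the log2FC within letter G was 0.40, −0.22, 0.43 and −0.86, in that order.

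Several matrix and prostaglandin genes known from the expanding cumulus were higher on the putative ruptured side. *Has2*, the hyaluronan synthase, ranged from 0.11 to 1.05 TPM (median 0.38) in putative unruptured and 0.39 to 4.09 TPM (median 1.49) in putative ruptured libraries (log2FC 1.92, SE 0.32, FDR = 6.79e-05) and had a log2FC of 1.96 (SE 0.34) within letter G. *Vcan*, versican, which binds hyaluronan, rose from a median of 22.5 to 38.1 TPM (log2FC 1.00 ± 0.13), and *Gfpt2*, which feeds hyaluronan synthesis, from 5.39 to 15.1 TPM (log2FC 1.65 ± 0.21). *Ptges*, prostaglandin E synthase, ranged from 2.50 to 11.8 TPM (median 7.83) in putative unruptured and 9.08 to 33.5 TPM (median 17.9) in putative ruptured libraries (log2FC 1.36, SE 0.14, FDR = 3.65e-07). *Ptgs2*, cyclooxygenase 2, ranged from 0.46 to 6.68 TPM (median 1.80) in putative unruptured and 0.54 to 31.9 TPM (median 3.05) in putative ruptured libraries, so that nearly all of the former range lay within the latter, and passed (log2FC 1.71, SE 0.45, FDR = 0.00696). It did not pass with limma (FDR = 0.23). *Pla2g4a*, which frees arachidonic acid, rose (log2FC 0.92 ± 0.18), and *Ptger3*, a receptor for prostaglandin E2, fell (log2FC −1.61 ± 0.38). Of 9 prostaglandin genes tested 3 rose and 2 fell (median log2FC 0.11, and 0.22 within letter G). Of 8 hyaluronan matrix genes the numbers were 5 and 1, and leaving out any of 20 single libraries took the former to 3 or 2, while the latter was 2 without putative ruptured replicate 4 or putative unruptured replicate 15. For *Ptgs2* and *Ptger3* the log2FC within letter G was 3.03 and −0.85, in that order.

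Markers of theca cells were higher on the putative unruptured side. Of 11 tested of 15 listed, 9 were higher there and 0 on the other side, with a median log2FC of −1.89, and −0.85 within letter G. Without putative unruptured replicates 1 and 7 the number was 6. Their summed level ran from 142 to 3017 TPM (median 929) in putative unruptured libraries and 23.8 to 878 TPM (median 66.1) in putative ruptured ones. Several putative ruptured libraries thus held as much of these markers as the lower libraries of the other side. *Dcn*, decorin, a small proteoglycan, ranged from 5.88 to 248 TPM (median 48.9) in putative unruptured and 0.75 to 51.1 TPM (median 10.2) in putative ruptured libraries (log2FC −2.12, SE 0.46, FDR = 0.00141). *Mgp*, matrix Gla protein, ranged from 7.93 to 281 TPM (median 68.9) in putative unruptured and 0 to 99.3 TPM (median 1.48) in putative ruptured libraries (log2FC −2.13, SE 0.60, FDR = 0.0117). *Nr2f2*, a nuclear receptor of theca and stroma, fell from a median of 2.71 to 2.0 TPM (log2FC −1.09, SE 0.21, FDR = 0.000379), and *Pdgfra*, a receptor of mesenchymal cells, from 2.70 to 0.525 TPM (log2FC −1.65, SE 0.41, FDR = 0.00436). Of the defining markers, *Insl3*, a hormone of theca cells, ranged from 4.95 to 299 TPM (median 33.3) in putative unruptured and 0 to 185 TPM (median 1.49) in putative ruptured libraries and was listed at 0 in 5 putative ruptured libraries. It did not pass (log2FC −1.49, SE 0.67, FDR = 0.127), but did without putative ruptured replicate 11 (log2FC −2.65, FDR = 0.00494). *Cyp17a1*, the androgen-making enzyme, was under the expression filter, with 206 counts over the putative unruptured libraries and 25 over the putative ruptured ones. *Ptch1*, the hedgehog receptor, had a log2FC of −0.11. The part of theca cells in the other differences between the sides was not tested. For *Dcn*, *Mgp* and *Nr2f2* the log2FC within letter G was −1.03, −1.05 and −0.67, in that order.

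**Figure D3:**
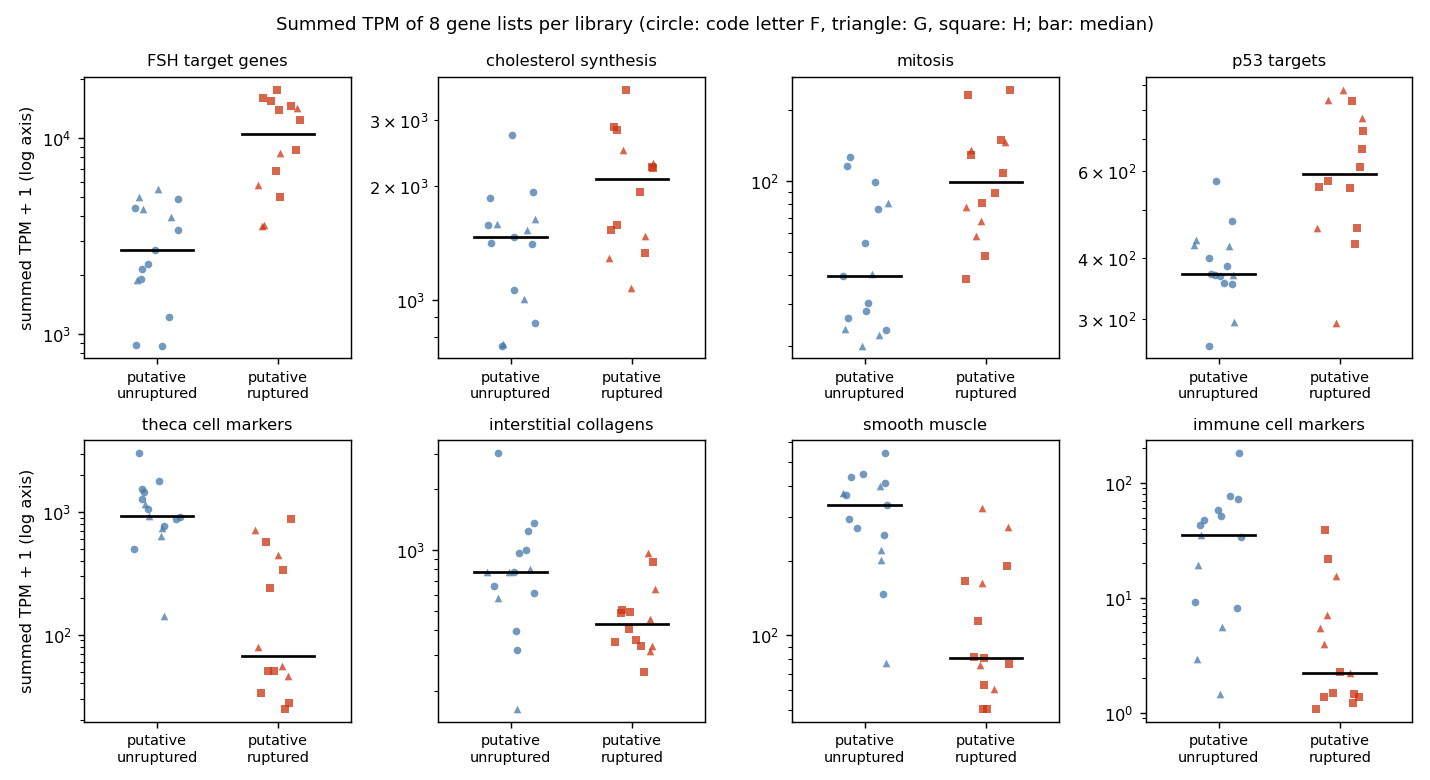
Summed TPM + 1 of 8 gene lists, 1 point per library on log axes, with the shape giving the code letter and the bar the median of the side. FSH targets have medians of 2701 and 10552 TPM and theca cell markers of 929 and 66.1 TPM on the putative unruptured and ruptured sides. The FSH target sums lie near the levels of *Inha* alone, as do those of the inhibin list (medians 2735.5 and 10411.7 TPM).

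Interstitial collagen genes that passed were mostly higher on the putative unruptured side. Of 20 interstitial collagen and crosslinking genes tested, 13 fell toward the putative ruptured side and 1 rose (median log2FC −0.99, and −0.51 within letter G). Without putative unruptured replicate 7 the 13 became 7. *Col3a1*, which lies at chromosome 1, 45311538 to 45349706, ranged from 11.2 to 2209.6 TPM (median 381) in putative unruptured and 0.05 to 437 TPM (median 17.0) in putative ruptured libraries. It passed (log2FC −2.44, SE 0.77, FDR = 0.0239), but not without that replicate (log2FC −1.99, FDR = 0.0621), and the same held for *Col1a2*, a chain of type I collagen (log2FC −2.01 with all libraries, −1.69 and FDR = 0.0617 without it). *Col12a1* (log2FC −1.25 ± 0.23) and *Col8a1* (log2FC −1.15 ± 0.30), minor collagens, passed with lower FDRs. *Plod2*, a lysyl hydroxylase that prepares collagen for crosslinking, was the one that rose, ranging from 60.6 to 166 TPM (median 114) in putative unruptured and 122 to 357 TPM (median 231) in putative ruptured libraries (log2FC 1.10, SE 0.17, FDR = 2.72e-05). For *Col3a1*, *Col1a2* and *Col8a1* the log2FC within letter G was −1.15, −0.61 and −0.44, in that order.

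Of 15 basement membrane genes 8 fell toward the putative ruptured side and 2 rose, with a median log2FC of −0.74, and leaving out any of 10 single libraries took the former to 5. Within letter G the median was −0.42. *Sparc*, which binds collagen IV, ranged from 663 to 2348 TPM (median 1728) in putative unruptured and 494 to 1234 TPM (median 925) in putative ruptured libraries (log2FC −0.84, SE 0.15, FDR = 0.000204). *Hspg2*, perlecan, fell from a median of 25.6 to 11.4 TPM (log2FC −0.76 ± 0.19), and *Nid1*, nidogen 1, from 8.83 to 2.19 TPM (log2FC −1.29 ± 0.35). *Dag1*, dystroglycan, a cell surface receptor for laminins, rose from 134 to 208 TPM (log2FC 1.03, SE 0.20, FDR = 0.000465), and so did *Lamb2*, the laminin beta 2 chain (log2FC 0.54 ± 0.14). In the list of small proteoglycans and stroma matrix 6 of 10 were higher on the putative unruptured side (median log2FC −1.10, and −0.47 within letter G), including *Fbn1*, fibrillin 1 (log2FC −1.44 ± 0.30), and *Fbln2*, fibulin 2 (log2FC −1.70 ± 0.31). *Fbln1*, fibulin 1, was the exception and rose, ranging from 15.8 to 57.6 TPM (median 26.2) in putative unruptured and 32.5 to 156 TPM (median 70.5) in putative ruptured libraries (log2FC 1.6, SE 0.20, FDR = 1.8e-06). For *Nid1*, *Fbn1* and *Fbln1* the log2FC within letter G was −0.45, −0.62 and 0.76, in that order.

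Most protease inhibitors tested were higher on the putative unruptured side. Of 10 inhibitors tested 8 were higher there (median log2FC −1.18, and −0.64 within letter G), and *Serpine2* was the 1 that was higher on the other side. *Timp1*, an inhibitor of metalloproteinases, ranged from 77.7 to 1483 TPM (median 639) in putative unruptured and 38.6 to 793 TPM (median 124) in putative ruptured libraries (log2FC −1.54, SE 0.38, FDR = 0.0041), and *Timp3*, which stays bound to the matrix, from 24.9 to 80.1 TPM (median 49.4) in putative unruptured and 6.30 to 62.6 TPM (median 15.6) in putative ruptured libraries (log2FC −1.36, SE 0.25, FDR = 0.000254). *Serpina3n*, an acute phase inhibitor of serine proteases, fell from a median of 16.6 to 0.78 TPM (log2FC −2.10 ± 0.62). Of 15 matrix proteases 6 fell toward the putative ruptured side and 3 rose, and the median log2FC of −0.33 was 0.00033 within letter G. *Mmp2*, gelatinase A, fell (log2FC −2.33, SE 0.54, FDR = 0.0023), as did *Plat*, tissue plasminogen activator, from 25.5 to 10.3 TPM (log2FC −1.15 ± 0.27), and *Ctsb*, cathepsin B, from 382 to 225 TPM (log2FC −0.78 ± 0.18). *Adamts1*, a protease of versican known to be induced by the surge, went the other way, ranging from 3.56 to 11.5 TPM (median 7.53) in putative unruptured and 8.39 to 29.7 TPM (median 15.7) in putative ruptured libraries (log2FC 1.19, SE 0.15, FDR = 1.8e-06). For *Timp1*, *Mmp2* and *Plat* the log2FC within letter G was −0.65, −1.14 and −0.45, in that order.

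Contractile, Wnt and retinoid genes that passed were also mostly higher on the putative unruptured side. Of 9 smooth muscle and contractile genes tested 6 were higher there and 1 on the other (median log2FC −1.45, and −0.56 within letter G). *Tpm1*, tropomyosin 1, ranged from 48.8 to 411 TPM (median 235) in putative unruptured and 25.7 to 212 TPM (median 56.5) in putative ruptured libraries (log2FC −1.47, SE 0.31, FDR = 0.000886), and *Cald1*, caldesmon, fell from a median of 22.7 to 4.74 TPM (log2FC −1.46 ± 0.34). *Acta2*, smooth muscle actin, passed (log2FC −1.53, SE 0.48, FDR = 0.023) but not without putative unruptured replicate 10 (log2FC −1.31, FDR = 0.051). *Myh11*, the myosin of mature smooth muscle, was listed at 0 in 8 of 15 and 13 of 14 libraries. Of 22 Wnt pathway genes 7 fell on the putative ruptured side and 2 rose (median log2FC −0.37, and 0.01 within letter G), and without putative ruptured replicate 2 or 9 the 2 became 1. The share that rose, 9.09%, was near the 8.84% of all genes, and 31.8% fell, against 8.96%. The ligands *Wnt5a* (median 4.30 to 0.745 TPM, log2FC −1.91 ± 0.31) and *Wnt6* (log2FC −1.98 ± 0.48), the carrier *Wls* (log2FC −0.65 ± 0.14) and the target *Axin2* (log2FC −1.02 ± 0.20) were among those that fell. *Aldh1a2*, which makes retinoic acid, ranged from 7.82 to 122 TPM (median 22.9) in putative unruptured and 0.8 to 14.3 TPM (median 7.04) in putative ruptured libraries (log2FC −2.11, SE 0.37, FDR = 0.000118). *Crabp2*, which carries retinoic acid to its receptors, rose instead, from a median of 13.9 to 61.6 TPM (log2FC 2.29, SE 0.33, FDR = 1.13e-05). Of 10 retinoid genes 5 fell and 2 rose, or 1 without putative ruptured replicate 13 (median log2FC −1.07, and −0.37 within letter G). For *Tpm1*, *Cald1*, *Acta2*, *Wls*, *Aldh1a2* and *Crabp2* the log2FC within letter G was −0.56, −0.60, −0.46, −0.40, −1.26 and 0.89, in that order.

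Of 12 genes tested in the list of complement, acute phase and chemokine genes, 6 fell toward the putative ruptured side and 2 rose. *C1s1*, a leading gene outside the list that encodes a protease of the complement complex C1, ranged from 6.52 to 75.7 TPM (median 24.3) in putative unruptured and 0.53 to 21.7 TPM (median 3.87) in putative ruptured libraries (log2FC −2.57, SE 0.41, FDR = 3.55e-05), with a log2FC of −2.48 (SE 0.58) within letter G, and its partner *C1ra* fell as well (log2FC −1.43 ± 0.24). *Cxcl1*, a chemokine that draws neutrophils, ranged from 172 to 534 TPM (median 326) in putative unruptured and 269 to 2069.6 TPM (median 1245) in putative ruptured libraries (log2FC 1.90, SE 0.26, FDR = 6.24e-06), and *Cxcl5* rose from a median of 5.65 to 21.8 TPM (log2FC 1.98 ± 0.33), while *Cxcl12*, made by stroma, fell (log2FC −1.22 ± 0.25) and *Cxcl14* fell from 6.81 to 0.475 TPM (log2FC −2.29 ± 0.50). *Saa3*, an acute phase protein, lost its call without putative unruptured replicate 7 (log2FC −2.73 with it, −1.75 and FDR = 0.0693 without). The remaining leading genes of the putative unruptured side were *Cpxm1*, a carboxypeptidase-like matrix protein (log2FC −2.44 ± 0.51), and *Sbsn*, suprabasin (log2FC −2.24 ± 0.48). For *Saa3* and *Cpxm1* the log2FC within letter G was −0.59 and −1.48, in that order.

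Most markers of other cells were low, but *Lyz2* was not on the putative unruptured side. *Lyz2*, lysozyme of macrophages and neutrophils, ranged from 0 to 141 TPM (median 29.7) in putative unruptured and 0 to 33.0 TPM (median 0) in putative ruptured libraries, where 8 of 14 libraries held none (log2FC −2.87, SE 0.70, FDR = 0.00397). It was the 1 of 12 immune markers that could be tested, and the defining markers *Ptprc* and *Adgre1* had medians of 0 and 0.09 TPM in putative unruptured libraries and were at 0 in 11 of 14 putative ruptured libraries each. The summed level of the list ran from 0.45 to 180.2 TPM and from 0.08 to 38.3 TPM on these sides. Within letter G its medians were 4.58 and 4.45 TPM, against 48.4 TPM for the putative unruptured libraries with F. Endothelial markers summed to 5.68 to 25.2 TPM and 2.8 to 19.6 TPM, and *Pecam1* and *Cdh5* stayed under 3 TPM in every library. The 1 of 12 endothelial markers that could be tested was higher on the putative unruptured side (log2FC −1.16). Within letter G its log2FC was −1.425 and it did not pass. Surface epithelium markers summed to 3.84 to 61.3 TPM and 2.72 to 9.85 TPM, with *Krt19* and *Upk3b* at 0 in all 14 putative ruptured and in 11 and 14 of 15 putative unruptured libraries. The highest putative unruptured library had 28.6 TPM of *Krt19*. For *Lyz2* the log2FC within letter G was −1.63.

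The labelled tissue was checked against oocyte markers. *Gdf9*, a growth factor secreted by the oocyte, was listed at 0 in 10 of 15 putative unruptured and 12 of 14 putative ruptured libraries, and so was *Zp3*, a protein of the zona pellucida. The 12 oocyte markers summed to a median of 0.2 TPM and 0.15 TPM and reached 170.5 TPM and 27.1 TPM. Of the cumulus cell markers, 5 of 6 tested were higher on the putative ruptured side, where their sum ran from 48.7 to 165 TPM against 32.4 to 65.8 TPM. Leaving out any of 5 single libraries took the 5 to 3, and the median log2FC of 0.89 was 0.28 within letter G. The label of a cumulus-oocyte complex was therefore not matched by oocyte messages in most libraries, and the part of cumulus cells left on the wall was not tested.

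Some lists moved little. Of 13 immediate early genes, which respond within minutes to handling or hormones, 0 passed with edgeR, and 2 were higher on the putative ruptured side without putative unruptured replicates 1 and 7 and 1 with limma. Leaving out any 1 of 14 libraries gave 1 to 3 higher there. The median log2FC of these genes was 0.35, and 0.56 within letter G. Antioxidant genes had 1 of 23 past the threshold, *Gsta4*, a glutathione transferase (median 9.17 to 28.3 TPM, log2FC 1.73 ± 0.34), and 1 more, lower, without putative ruptured replicate 2 or 4. Their median log2FC was −0.06, and −0.01 within letter G. Glycolysis had 3 of 22 higher on the putative unruptured side and a median log2FC of −0.31. The 3 became 1 without putative unruptured replicate 6 or 7, and 1 gene was higher on the putative ruptured side without any 1 of 5 libraries. Targets of the mechanosensor YAP had 1 higher and 3 lower of 13 (median log2FC −0.25, and 0.06 within letter G). Among hypoxia genes, *Hif1a*, the oxygen-sensing transcription factor, rose and ranged from 45.5 to 153 TPM (median 73.8) in putative unruptured and 63.1 to 381 TPM (median 184) in putative ruptured libraries (log2FC 1.29, SE 0.19, FDR = 1.54e-05). Its relative *Epas1* rose from a median of 1.28 to 4.83 TPM (log2FC 1.48 ± 0.31). Of 14 hypoxia genes tested 2 were higher on the putative ruptured side, 2 on the putative unruptured side, and 10 were not past the threshold. The number higher on the putative unruptured side ran from 0 to 2 when single libraries were left out. The list median was −0.10, and −0.06 within letter G. *Fxyd1*, a regulator of the sodium pump, was under the expression filter and so not tested. It had 85 counts over the putative unruptured libraries and 8 over the putative ruptured ones. Its levels ran from 0.87 to 37.9 TPM (median 7.43) and from 0 to 10.05 TPM (median 0), in that order. It was at 0 in 0 of 15 and 9 of 14 libraries. The study lists *Fxyd1* among its top genes of the putative unruptured side. For *Gsta4* the log2FC within letter G was 0.48.

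Amino acid transporters, imprinted genes and integrins each had members past the threshold. Of 16 amino acid transporters tested 6 rose and 0 fell, although the list median was 0.03, 0.35 within letter G, and −0.01 with library totals. *Slc7a8*, which carries neutral amino acids, ranged from 7.94 to 182 TPM (median 27.6) in putative unruptured and 31.9 to 457 TPM (median 138) in putative ruptured libraries (log2FC 1.92, SE 0.40, FDR = 0.000913). *Slc6a6*, the taurine transporter, ranged from 11.9 to 40.0 TPM (median 27.6) in putative unruptured and 42.0 to 131 TPM (median 60.7) in putative ruptured libraries and did not overlap (log2FC 1.12, SE 0.14, FDR = 1.39e-06). *Slc3a2*, the heavy chain that several of these carriers need, rose from a median of 103 to 148 TPM (log2FC 0.73 ± 0.20). Among 9 imprinted genes tested (median log2FC −0.43, and −0.06 within letter G) *Nap1l5* was the 1 that rose. *Ndn*, necdin, fell from 5.85 to 2.90 TPM (log2FC −0.88, SE 0.15, FDR = 6.81e-05), as did *Peg10* (log2FC −1.47 ± 0.28), *Grb10*, an adaptor that restrains insulin receptors (log2FC −1.28 ± 0.29), and *Gnas*, the stimulatory G protein (log2FC −0.57 ± 0.17, and 0.030 within letter G). Among 11 integrins *Itgav* (log2FC 0.70 ± 0.13) and *Itgb3* (log2FC 0.98 ± 0.20), which pair as a receptor for vitronectin, rose beside *Itga2*, and *Itgb1*, the beta chain of most collagen and laminin receptors, fell from 173 to 112 TPM (log2FC −0.68, SE 0.17, FDR = 0.0041). The 1 integrin that fell is 9.09% of those tested, near the 8.96% of all genes. For *Slc6a6* and *Itgb1* the log2FC within letter G was 0.75 and −0.25, in that order.

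**Figure D4:**
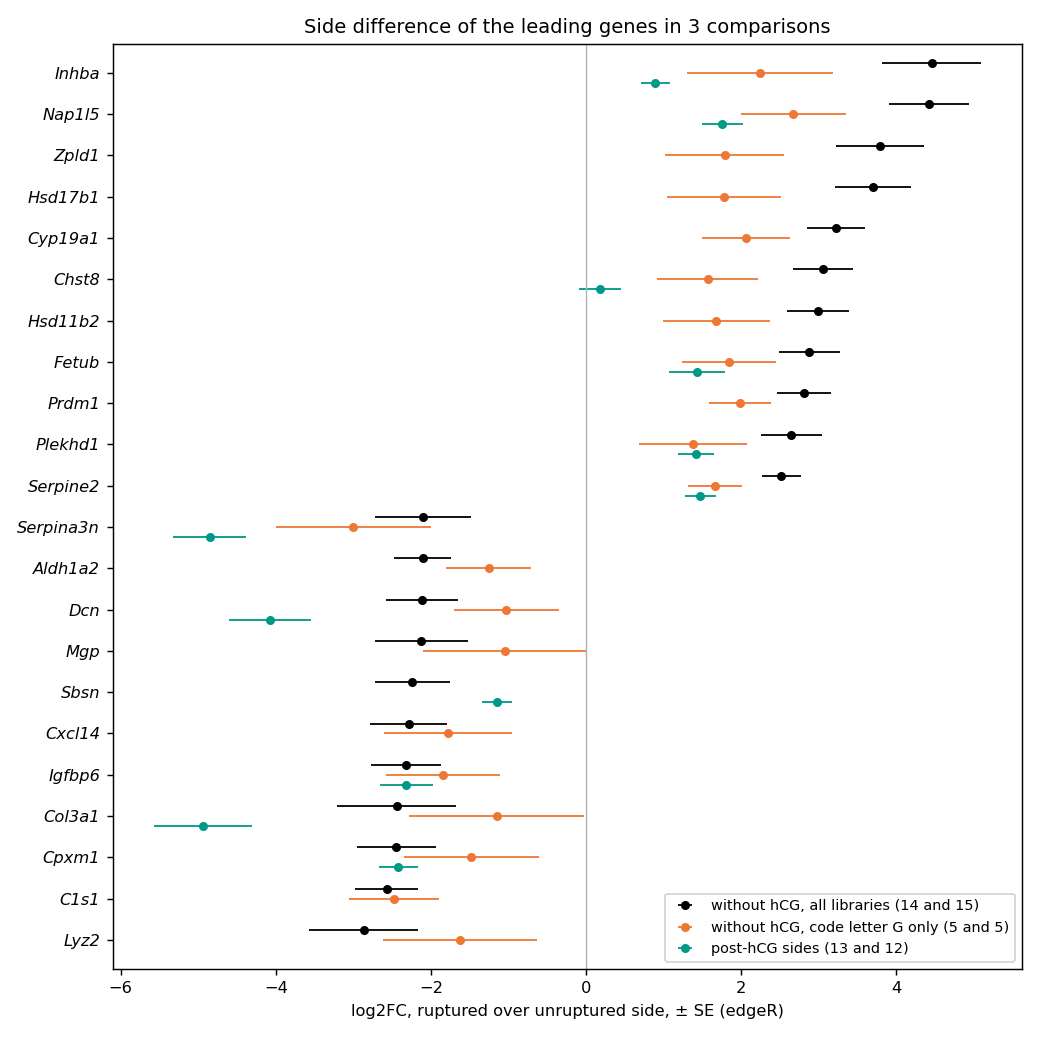
Log2FC of 22 of the 24 leading genes with its SE in all libraries without hCG, within code letter G and between the sides post-hCG. *Inhba* had values of 4.46, 2.24 and 0.89, and genes with no point failed the expression filter of that comparison.

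Whether the side difference depended on hCG was tested with the 12 unruptured and 13 ruptured libraries of follicles that received hCG for the same 12 h. Codes of those libraries begin with B or C on the unruptured and C or D on the ruptured side and share no letter with those without hCG, so hCG and the letter cannot be told apart. The side difference without hCG differed from that post-hCG in 892 of 10013 genes (8.91%) by edgeR's interaction term, 466 of them with a log2FC further toward the putative ruptured side without hCG. Of the 24 leading genes, 4 passed. *Inhba* had a side log2FC of 4.46 without hCG and 0.89 post-hCG (interaction FDR = 0.000383). The same pair of values was 4.42 and 1.76 for *Nap1l5* (interaction FDR = 0.00877), 3.06 and 0.18 for *Chst8* (interaction FDR = 0.000649), and 2.52 and 1.47 for *Serpine2* (interaction FDR = 0.0316). The leading genes were chosen for their log2FC without hCG. None of the 12 leading genes of the putative unruptured side passed with edgeR, with interaction FDRs from 0.0989 for *Serpina3n* to 0.997 for *Igfbp6*.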

How the data were processed

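Follicle sides were sequenced by Smart-Seq2, a full-length method without molecular identifiers. The authors aligned reads with HISAT2 to GRCm38 and deposited estimated counts per coding gene and a TPM table, with 1 row per gene symbol and 1 column per library. Of the non-zero counts 72.2% were whole, and counts were rounded. The methods mention a batch correction but not which libraries formed batches, and it is not stated whether the deposited counts carry it. Samples were grouped by title. Genes were kept by filterByExpr (minimum count 10, minimum total 15) and, after TMM scaling, with factors of 0.791 to 1.30, compared by the quasi-likelihood test of edgeR 4.0.16 (R 4.3.3), with an FDR threshold of 0.05, and the code was tested on simulated data. The common biological coefficient of variation was 0.279. DESeq2 1.42.0, limma 3.58.1 on log2(TPM + 1), other scalings and filters, thinning, a replicate block, the code letter and leaving out libraries were alternatives. The letter as a factor and DESeq2 within a letter were chosen after seeing the data. The gene lists and named genes were chosen with earlier results of these data known. Named were the 12 largest log2FC per direction among called genes that averaged at least 5 TPM on the higher side, with a count in at least 80% of its libraries and no library holding over 40% of that side, up to 4 called genes of a list per direction by FDR, genes that define a step or cell type, and genes the study names. Positions are from GENCODE on GRCm38 for genes with a unique symbol. Some genes that the rule names are not reported here.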

Additional observations from a re-analysis of the deposited data

Results flagged for a closer look

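The difference between the sides without hCG and post-hCG itself passed edgeR's interaction test in 4 of the 24 leading genes. The log2FC without hCG minus that post-hCG was 3.54 for *Inhba*, 2.65 for *Nap1l5*, 2.86 for *Chst8* and 1.03 for *Serpine2*. These genes were chosen for their log2FC without hCG, and hCG cannot be told apart from the code letter, which the media do not share.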

How the results depend on the processing

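Of 134 named genes past the threshold *Gnas* alone changed direction in an alternative, to a log2FC of 0.030 within code letter G, 0.031 with the letter as a factor and 0.022 within G with DESeq2. With limma on log2(TPM + 1), 427 and 572 genes were higher on the putative ruptured and unruptured sides, and 13 of the named genes lost their call. Within code letter G edgeR called 3 and 0 genes and DESeq2 49 and 24, and with the letter as a factor edgeR called 4 and 0. Within G, 125 of 129 named genes kept their direction but lost their call. Counts under the other tools, scalings and filters stayed within 1.5 times the 801 and 812 reported. Leaving out each library gave 714 to 881 and 682 to 877. Among fits that tested the gene, it cost 5 named genes their call. These were *Rrm2* without any 1 of 19 libraries, *Col3a1*, *Col1a2* and *Saa3* without putative unruptured replicate 7, and *Acta2* without putative unruptured replicate 10. A named gene that fell under the expression filter when a library was left out was not counted as losing its call. The deposited TPM had 3 genes whose sides did not overlap. Same-numbered libraries of the sides did not deviate together, with a median correlation of −0.0797 over 14 pairs and 3 pairs over 0.1, and 2 putative unruptured libraries correlated best with their own number. A replicate block gave 702 and 703 genes, and *Ptgs2* (log2FC 1.22, FDR = 0.156) and *Rrm2* (log2FC 0.94, FDR = 0.0962) lost their calls. The interaction count of 892 ran from 706 to 992, the latter with the block. The cause of these changes was not tested.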
